A study of Saccharomyces cerevisiae with 5 samples.

Results

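The strains described here are yeast deletion strains of 49 neighbouring genes on the right arm of chromosome IV, from GPI19 (YDR437W) to ITR1 (YDR497C). They were found by gene symbol in the platform annotation, which gave all 49 genes and 50 tag sets, because JIP4 has 2, of 5325 genes and 5444 tag sets in all. The genes were chosen as neighbours from an earlier reading of the same arrays, in which many strains of this stretch gave more signal on the array that compared Pool A with Pool B. That contrast is therefore only described: no p-value is printed for it, and its counts of calls stand beside the share over all strains and support nothing. The whole stretch holds 56 named tag sets, of which 6 (YDR444W, TOM1, PFA5, TFB3, TRS31 and YDR476C) are not among the 49 genes.

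The study compared barcode abundance between 2 pools of heterozygous yeast knockout strains on 5 two-colour arrays. On 1 array, called the mixed array, Cy3 carried Pool A and Cy5 carried Pool B; on 1 array both channels carried Pool B, and on 3 arrays both channels carried Pool A. The last 4 are self-self arrays, in which no strain differs between the channels by design. All strains were grown on YPD agar before pooling, and each is a diploid that lacks 1 of its 2 copies of a gene. By design 94 strains differed in amount: Pool B received them at full strength or after a dilution of 8 or 64 times, and Pool A received them thinned by a further 0.33 to 5 log2 units or not at all. The labels do not say which strains these were, so no member can be assigned a designed step.

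In the yeast deletion collection each gene was replaced by a marker cassette holding a pair of strain-specific barcodes, UPTAG and DNTAG, and the primer sites around them are common to all strains. Amplifying the barcodes from pooled genomic DNA and hybridising them to an array measures how much of each strain's DNA is present. The reading concerns the strain and not the activity of the deleted gene, so paralogous genes such as those of ribosomal proteins are told apart by their barcodes. Less DNA of a strain and poorer amplification or hybridisation of its barcode cannot be told apart in the signal of a single channel. The ratio compares the same barcode between the channels of a spot. Amplification or hybridisation that differs between the channels would remain in the ratio, and it was not tested. The barcode sequences were not used here.

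All values are log2 ratios of the 2 channels, centred on the median of the named spots of each array, and the mean of both tags of a strain unless a tag is named. The 2 tags lie in 2 blocks of spots, called the first and the second tag, since the sources do not say which block holds the UPTAGs. The difference of a strain sets the mixed array against the mean over the 3 arrays with Pool A in both channels. Its standard error (SE) comes from a limma fit in which all spread is that of the Pool A arrays, so the lone mixed array is assumed to vary like them. The sources do not state the direction of the ratio. A positive value was read as an excess of Cy5, the Pool B channel of the mixed array, and this direction is likely only. The design gives the unequal strains less in Pool A than in Pool B. Over the whole series 14 strains had both tags at 2 or more and 2 had both at -2 or less, but 7 of the 14 are members, and more strains were called lower (318) than higher (84), so these values do not settle the direction.

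The members covered a wide range on the mixed array. Their differences ran from -0.21 (DIG2) to 4.05 (ECM11), with a median of 1.04 and quartiles of 0.36 and 2.03, against a median of -0.06 over all 5444 strains. Of the members, 2 reached 3, another 11 reached 2 and another 15 reached 1, so that 28 were at 1 or more (0.863% of all strains were); 19 lay between 0 and 1, and 3 were negative. By limma with an adjusted p under 0.05, 34 of the 50 were called higher and 0 lower (Pool B against Pool A by the direction taken), beside 1.54% of all strains called higher and 5.84% called lower. Since the members were picked from this contrast, the count is a description. The mixed array lay above all 3 Pool A arrays in 46 members (27.4% of all strains did) and above all 4 self-self arrays in 38 (15.8%). With the Pool B self-self array pooled into the reference, 14 members were called (0.496% of all strains), and without centring 19 (0.569%).

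**Figure D1:**
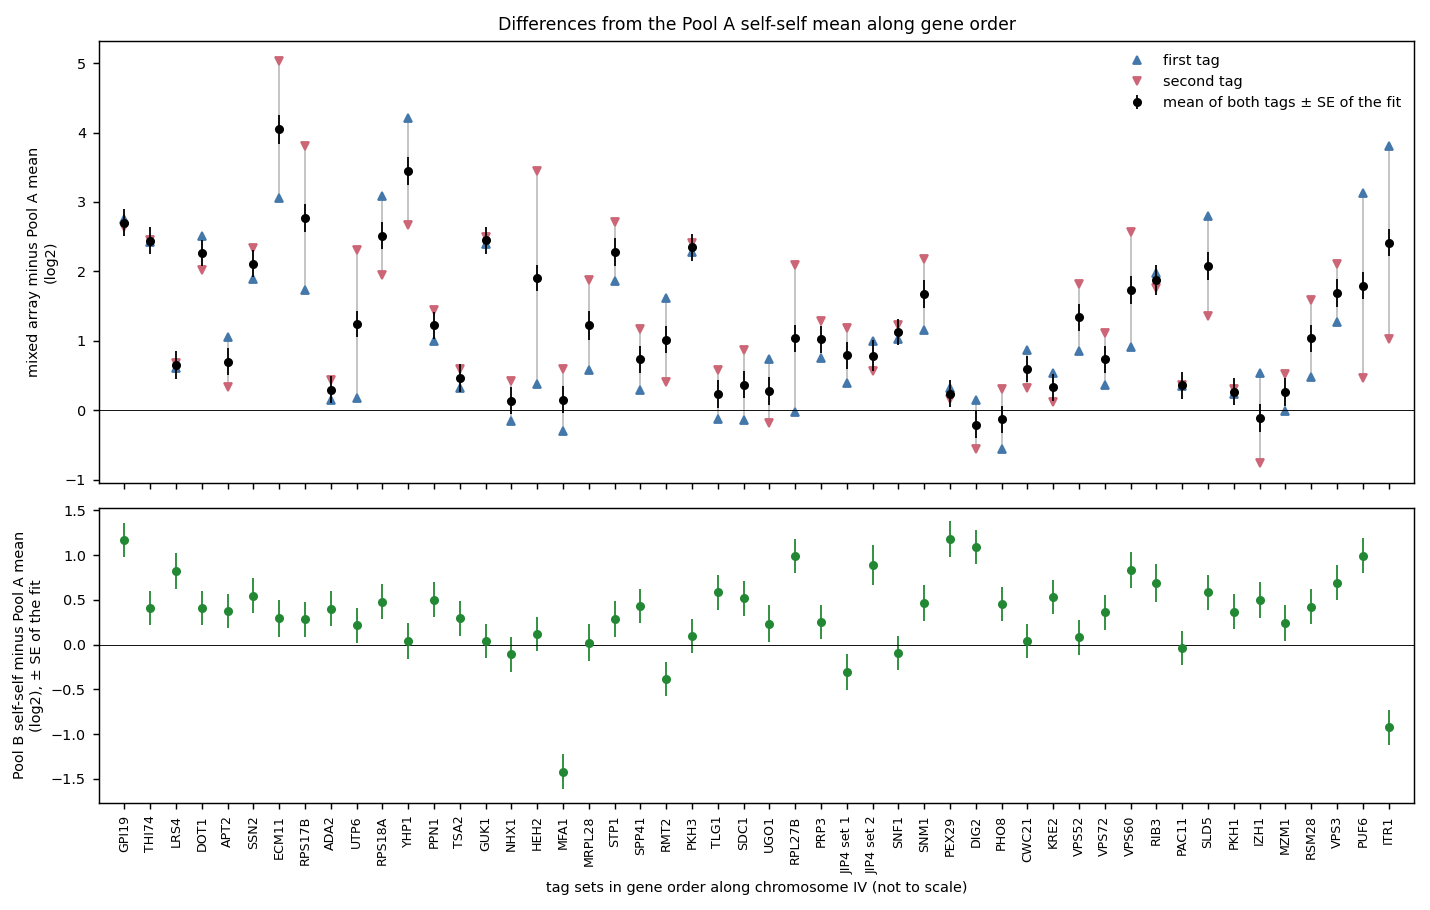
Members in gene order; the upper panel gives the mixed array minus the Pool A self-self mean in log2 units for the first tag, the second tag and their mean (± SE of the fit), and the lower panel sets the Pool B self-self array against the same Pool A mean on its own scale. ECM11 (4.05) and YHP1 (3.44) stand highest in the upper panel, the run from PEX29 to KRE2 stays below 1, and MFA1 (-1.42) and ITR1 (-0.93) stand lowest in the lower panel.

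ECM11 and YHP1 led the members. ECM11, a meiotic protein of the synaptonemal complex, read 3.66 on the mixed array and -0.09 on the Pool B self-self array, against -0.27, -0.21 and -0.67 on the 3 arrays of Pool A. The mixed array was far above the other 4, which lay within 0.6 of each other, and the difference was 4.05 ± 0.21 (SE), or 16.5-fold. YHP1, a homeobox repressor of cell cycle genes, read 3.13 on the mixed array and -0.27 on the Pool B self-self array, against -0.23, -0.18 and -0.54 on the Pool A arrays. Its difference was 3.44 ± 0.20, or 10.9-fold, and all 4 self-self arrays were below 0.

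The next members, between 2 and 3, came from several processes. RPS17B, a small-subunit ribosomal protein gene, read 2.86 on the mixed array and 0.38 on the Pool B self-self array, against 0.25, -0.03 and 0.06 on the Pool A arrays. GPI19, needed for the first step of GPI anchor synthesis, read 1.96 on the mixed array and 0.43 on Pool B self-self, against -0.63, -0.83 and -0.75 on Pool A self-self. RPS18A, another small-subunit ribosomal protein gene, read 2.20 on the mixed array and 0.16 on Pool B self-self, against -0.38, -0.19 and -0.40 on Pool A self-self. The differences were 2.77 ± 0.20, 2.70 ± 0.19 and 2.52 ± 0.19. In GPI19 part of the difference came from low Pool A values: relative to the Pool B self-self array it was 1.53, whereas RPS17B (2.48) and RPS18A (2.03) changed less. GUK1, the guanylate kinase gene, read 2.29 on the mixed array and -0.11 on Pool B self-self, against -0.07, -0.13 and -0.26 on Pool A self-self. THI74, a thiamine-repressed gene of a mitochondrial transporter, read 2.45 and 0.42 on the mixed and Pool B arrays, against 0.14, 0.003 and -0.10 on Pool A self-self. In these the mixed array was again above the other 4, by 2.45 ± 0.19 over the Pool A mean in GUK1 and 2.44 ± 0.19 in THI74.

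The remaining members of the first 12 lay from 2.11 to 2.42. ITR1, the major myo-inositol transporter gene and the last gene of the stretch, read 2.40 on the mixed array and -0.94 on Pool B self-self, against 0.15, -0.09 and -0.11 on Pool A self-self. Its Pool B self-self value was the lowest of all members, so that its difference of 2.42 ± 0.20 became 3.34 when the Pool B array was the reference. PKH3, a kinase gene related to PKH1, read 2.00 and -0.25 on the mixed and Pool B arrays, against -0.26, -0.31 and -0.47 on Pool A self-self. STP1, a transcription factor gene of amino acid permease induction, read 1.59 and -0.41, against -0.52, -0.66 and -0.91 on Pool A self-self. Every self-self array was negative for PKH3 and STP1, and their differences were 2.35 ± 0.19 and 2.28 ± 0.20. DOT1, the histone H3 methyltransferase gene of telomeric silencing, read 1.91 and 0.05, against -0.28, -0.36 and -0.43 on Pool A self-self. SSN2, a Mediator subunit gene, read 1.90 and 0.33, against -0.02, -0.25 and -0.36 on Pool A self-self. The self-self values of these 2 strains did not reach the mixed array's, and the differences were 2.27 ± 0.19 and 2.11 ± 0.20. SLD5, a subunit of the GINS replication complex, was the only other member above 2 (2.08 ± 0.20).

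**Figure D2:**
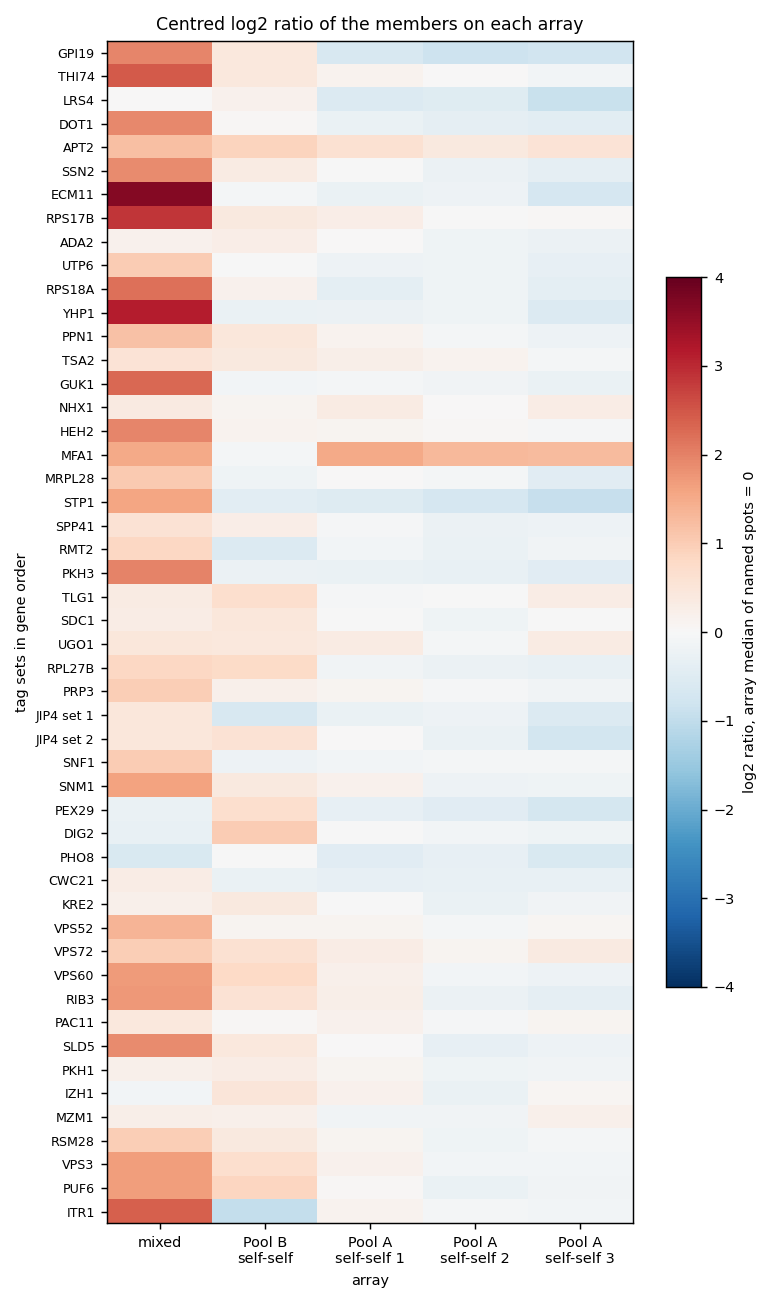
Centred log2 ratio of each member (rows, in gene order) on each of the 5 arrays (columns), with the mixed array at the left, then Pool B self-self and the 3 Pool A self-self arrays; colour runs from -4 (blue) to 4 (red). The mixed column holds most of the red, MFA1 is red on the mixed and Pool A arrays but not on Pool B self-self, and DIG2 is red on Pool B self-self only.

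The 5 members nearest to 0 were DIG2, PHO8, IZH1, NHX1 and MFA1. PHO8, the vacuolar alkaline phosphatase gene, read -0.60 on the mixed array and -0.02 on Pool B self-self, against -0.47, -0.34 and -0.62 on Pool A self-self, so the mixed array lay inside the Pool A range (difference -0.13 ± 0.20). IZH1, a membrane protein gene of zinc homeostasis, read -0.11 and 0.50 on the mixed and Pool B arrays, against 0.17, -0.25 and 0.08 on Pool A self-self (-0.11 ± 0.20). NHX1, an endosomal sodium-proton exchanger gene, read 0.35 and 0.10, against 0.34, 0.01 and 0.28 (0.14 ± 0.20). In these 3 strains the SE exceeded the difference. The other two departed on a self-self array. DIG2, an inhibitor of the mating transcription factor Ste12, read -0.30 on the mixed array and 1.00 on Pool B self-self, against -0.01, -0.11 and -0.16 on Pool A self-self. MFA1, a gene of the a-factor mating pheromone, read 1.51 on the mixed array and -0.07 on Pool B self-self, against 1.52, 1.29 and 1.26 on Pool A self-self. MFA1 was thus well above 0 even where both channels held Pool A, and it was so in the second tag (3.08 on the mixed array and 0.14 on Pool B self-self, against 2.68, 2.34 and 2.41 on Pool A self-self). The first tag of MFA1 read -0.06 on the mixed array and -0.27 on Pool B self-self, against 0.36, 0.23 and 0.10.

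Read along the chromosome, large and small differences lay side by side, with most of the large ones toward the GPI19 end. In 5 consecutive sections of 10 tag sets the median difference was 2.19 from GPI19 to UTP6, 1.57 from RPS18A to STP1, 0.79 from SPP41 to the second JIP4 set, 0.67 from SNF1 to VPS60 and 1.36 from RIB3 to ITR1. Members at 2 or more numbered 6, 4, 1, 0 and 2 in the same order. Consecutive members differed by a median of 0.95, against 0.96 over all pairs of members, and 24 of 49 consecutive pairs were more than 1 apart. Between consecutive members the widest step was from RPS17B (2.77) to ADA2 (0.29), a SAGA coactivator gene. The next was from GUK1 (2.45) to NHX1 (0.14), between which lies a spot pair without a gene name. Consecutive members pass over the other named genes of the stretch, from YDR444W (-0.59) to TFB3 (6.55). Steps between directly adjacent genes can therefore be wider. The longest run below 1 had 5 members: PEX29 (0.24), a peroxisomal membrane protein gene, DIG2 (-0.21), PHO8 (-0.13), CWC21 (0.60), a spliceosome-associated protein gene, and KRE2 (0.33), a Golgi mannosyltransferase gene. In the same 5 sections the Pool B self-self array exceeded the Pool A mean by medians of 0.41, 0.08, 0.34, 0.46 and 0.46.

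The genes just outside the stretch read lower than its end members on both sides. GPI19 was at 2.70, and the genes before it, PPZ2 and PPM1, were at -0.15 and -0.68. On the right ITR1 was at 2.42, and the genes after it, SEC20 and LCD1, were at -0.07 and 0.55. Within the stretch the 6 other tag sets ran from -0.59 (YDR444W) to 6.55 (TFB3), with TOM1 at 4.59, PFA5 at 4.80, TRS31 at 3.04 and YDR476C at 0.50.

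The deleted genes were sorted by textbook role into 10 groups, with earlier results of these data known. All 8 genes of the ribosome and its assembly were at 1 or more (median 1.23, against 1.04 over all members), as were 28 of all 50 members and 0.863% of all strains. Besides RPS17B and RPS18A these were PUF6 (1.80), an RNA-binding protein of large-subunit assembly, and UTP6 (1.24) of the small-subunit processome. The mitochondrial ribosomal protein genes MRPL28 (1.22) and RSM28 (1.04), RPL27B (1.04) of the large subunit and RMT2 (1.02), which methylates a ribosomal protein, completed the group. Both tags reached 1 only in RPS17B and RPS18A. The lower tag read 0.58 in MRPL28, 0.48 in RSM28, 0.46 in PUF6, 0.41 in RMT2, 0.18 in UTP6 and -0.02 in RPL27B. Without centring, UTP6 (0.82), MRPL28 (0.80), RSM28 (0.61), RPL27B (0.61) and RMT2 (0.59) were below 1, and the median of all members was 0.61. With the Pool B array as the reference, PUF6 (0.80), RSM28 (0.61) and RPL27B (0.04) were below 1. The 9 genes of chromatin and transcription had a median of 0.74 and split into 4 above 2 (YHP1, STP1, DOT1 and SSN2) and 5 below 1. Those below 1 were VPS72 (0.74), a subunit of the SWR1 remodeller, LRS4 (0.65) of rDNA silencing, SDC1 (0.37) of the COMPASS histone methyltransferase, ADA2 (0.29) and DIG2.

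Of the 7 genes of the endosome, Golgi and vacuole, 4 were at 1 or more and 3 below. VPS60 (1.74), an ESCRT-associated protein gene, VPS3 (1.69) of the CORVET tethering complex, VPS52 (1.34) of the GARP complex and the polyphosphatase gene PPN1 (1.22) stood above TLG1 (0.23), a SNARE gene, NHX1 and PHO8. The 4 mitochondrial and peroxisomal genes had the lowest median of the groups (0.27), with the mitochondrial ribosomal protein genes MRPL28 (1.22) and RSM28 (1.04) sorted with the ribosome. THI74 was at 2.44, while UGO1 (0.28) of mitochondrial fusion, MZM1 (0.26) of respiratory complex III assembly and PEX29 (0.24) were below 1. Among 4 RNA processing genes SNM1 (1.67) of RNase MRP and PRP3 (1.02) of the U4/U6 snRNP were at 1 or more, and SPP41 (0.73) and CWC21 (0.60) were not.

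The smaller groups were as uneven. Kinase and mating genes ran from MFA1 (0.15) and PKH1 (0.27), a kinase of the Pkc1 and Ypk1 pathways, to SNF1 (1.13), the AMP-activated kinase gene, and PKH3 (2.35), so the related kinase genes PKH3 and PKH1 stood 2.35 against 0.27. Enzymes of nucleotides, redox balance and cofactors ran from TSA2 (0.46), a peroxiredoxin gene, and APT2 (0.70), related to adenine phosphoribosyltransferase, to RIB3 (1.87) of riboflavin synthesis and GUK1. Cell surface and transport genes ran from IZH1 and KRE2 to ITR1 and GPI19. Genes of chromosomes, nucleus and cytoskeleton ran from PAC11 (0.36), a dynein intermediate chain gene, over HEH2 (1.91), an inner nuclear membrane protein gene, and SLD5 to ECM11. JIP4, of unknown role, read 0.79 and 0.78 in its 2 tag sets.

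Members well known as essential in haploid cells were GPI19, UTP6, GUK1, PRP3, SNM1, SLD5 and RIB3. They lay from 1.02 to 2.70 (median 1.87). The other 42 genes were not sorted by essentiality and had a median of 0.79 over 43 tag sets. They may include further essential genes, so these medians do not compare essential with non-essential genes. The sorting was made with the differences known, and no test of it is given.

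**Figure D3:**
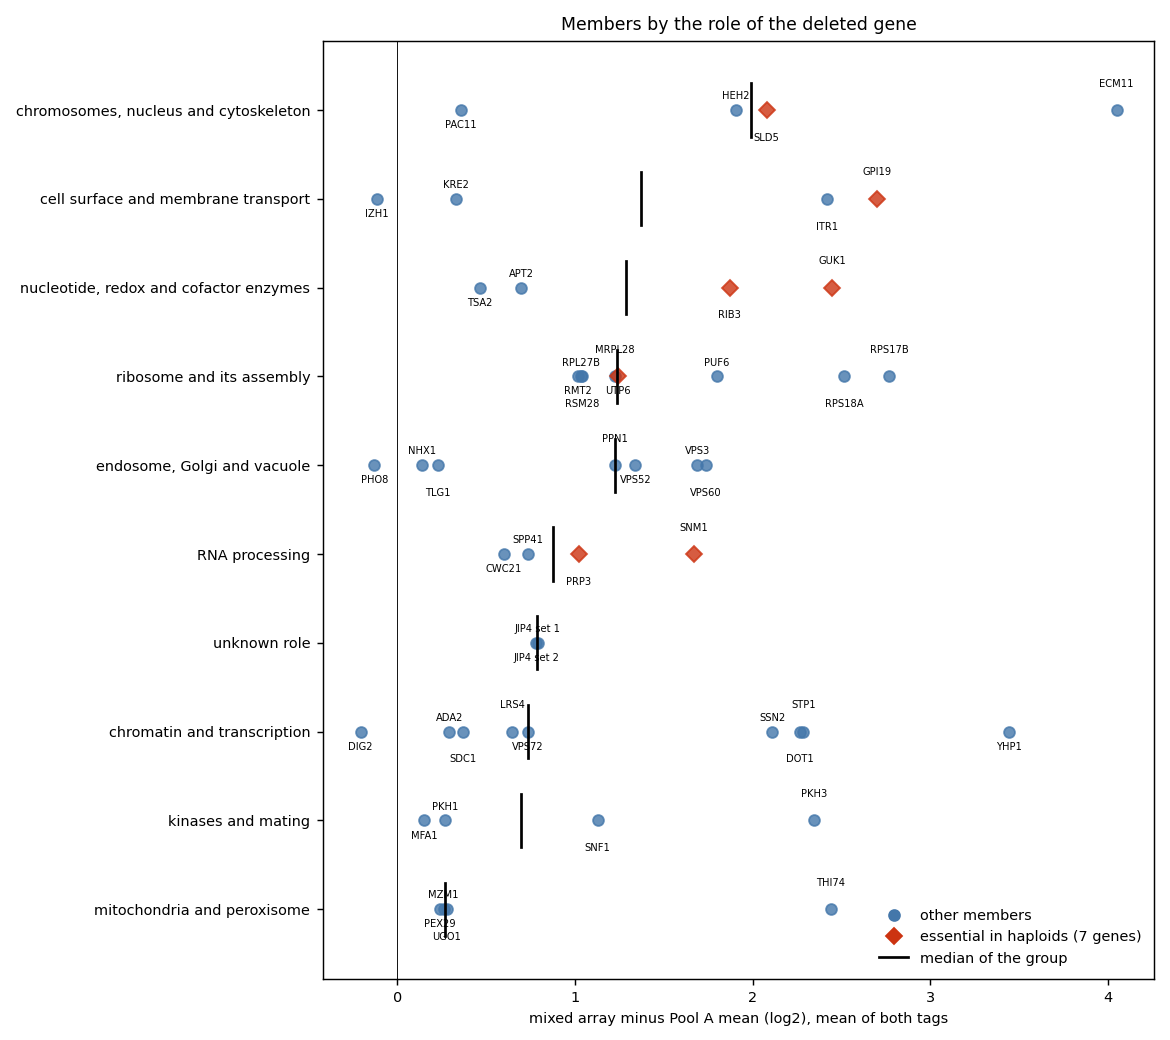
Mixed array minus Pool A mean in log2 units (mean of both tags) for each member, by the role of the deleted gene. Diamonds are the 7 genes sorted as essential in haploids. Circles are the other members, which were not sorted by essentiality, and vertical bars the medians of the groups. All 8 genes of the ribosome and its assembly lie above 1, chromatin and transcription genes fall on both sides of the gap between 1 and 2, and the diamonds lie from 1.02 to 2.70.

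The 2 tags of a strain are separate barcodes amplified in separate reactions from the same DNA, and they often read different sizes. The gap between them had a median of 0.77 in the members, against 0.41 over all strains, and exceeded 2 in 6 members (12%, against 0.735% of all strains). The second tag was the larger in 33 of 50 members, which was not counted over all strains. Its median difference was 1.20, against 0.81 for the first tag, and over all strains either tag had a median of -0.04. The mean of both tags was above 0 in 47 members (42% of all strains). Both tags were above 0 in 40 members, which was not counted over all strains. Both were called in 20 (0.569% of all strains) and both reached 1 in 17 (0.496%). Of single tags 55 of 100 were called higher, beside 1.87% of all tags. Over the 50 tag sets Pearson's r of the tags was 0.50 and Spearman's rho 0.51, against 0.23 and 0.06 over all strains. The points share the same 4 arrays and their DNA samples. The members were also chosen from the contrast that these tags make up. The gaps, counts and correlations beside those of all strains are therefore a description and not a trait of the members.

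Several strains had tags that read alike. GPI19 read 2.76 and 2.64, THI74 2.42 and 2.46, GUK1 2.39 and 2.50, PKH3 2.28 and 2.41 and RIB3 1.98 and 1.76 in the first and second tag. In contrast, HEH2 had the widest gap: its first tag read 0.64 on the mixed array and 0.39 on Pool B self-self, against 0.33, 0.07 and 0.40 on Pool A self-self, and its second tag 3.25 and -0.09, against -0.11, 0.00 and -0.46. Only the second tag of HEH2 thus stood apart, by 3.44 against 0.37 for the first. The difference in ITR1 was 3.80 in the first tag and 1.03 in the second, although both tags were below 0 on Pool B self-self (-1.19 and -0.69). PUF6 read 3.13 and 0.46, and its first tag was also high on Pool B self-self (1.40, against -0.02, -0.24 and -0.18 on Pool A self-self). As the mean of both tags, UTP6 read 1.01 on the mixed array and -0.02 on Pool B self-self, against -0.20, -0.17 and -0.33 on Pool A self-self. The differences of its tags were 0.18 and 2.31, those of RPL27B -0.02 and 2.10 and those of RPS17B 1.73 and 3.81. The first tags of UTP6 and RPL27B were within their SE (0.25 each) of 0, and in ECM11 (3.06 and 5.03) and YHP1 (4.21 and 2.67) either tag was above 2.

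**Figure D4:**
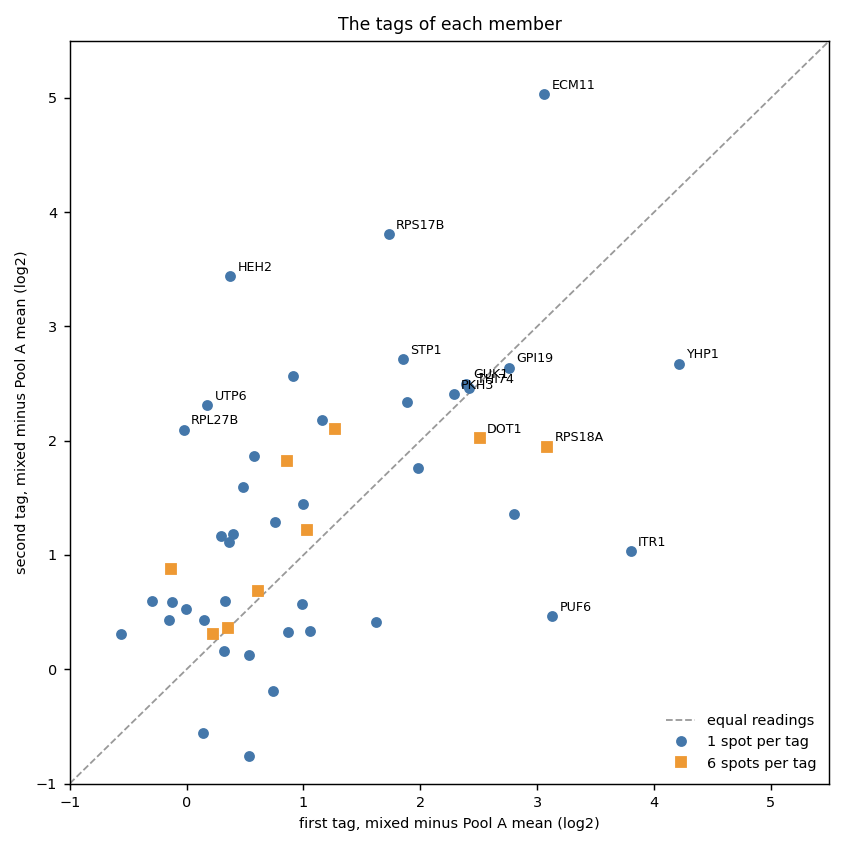
Difference (mixed minus Pool A mean, log2) of the second tag against that of the first for the 50 tag sets; squares have 6 spots per tag and circles 1, and the dashed line marks equal readings. GPI19, THI74, GUK1 and PKH3 lie close to the line, HEH2, UTP6 and RPL27B far above it, and PUF6 and ITR1 far below it.

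For 9 members each tag was spotted 6 times, which shows the error of a spot. In DOT1 the 6 spots of the first tag ran from 1.88 to 2.21 on the mixed array (SD 0.12) and those of the second from 1.65 to 1.92 (SD 0.10). In RPS18A they ran from 2.30 to 2.67 and from 1.73 to 1.98, so that its tags did not overlap. SDC1 had a first tag between -0.56 and -0.21 and a second between 0.96 and 1.07. The gap between the tags of RPS18A and SDC1 therefore exceeded the spread over spots. The spots of the tags did not overlap in LRS4, VPS3, VPS52 and SNF1 either, though narrowly in SNF1 (0.44 to 1.03 and 1.04 to 1.58). They overlapped in DOT1, PAC11 and PKH1. VPS52 had the widest spread, from 1.19 to 2.35 in the second tag (SD 0.41, 6 spots). The 41 other tag sets rest on 1 spot a tag.

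The Pool B self-self array took no part in choosing the members. Its value was tested against 0, the median of its named spots, with the spread of the Pool A arrays. This lone array is thus assumed to vary like them. Neither its own variation nor the gap between the tags enters the SE or the adjusted p. Over named spots this array correlated with the Pool A arrays at 0.27 to 0.36, against 0.83 to 0.91 among the Pool A arrays. By limma 9 members were called above 0 and 3 below, 12 in all, beside 6.59%, 4.04% and 10.6% of all strains, and the median was 0.29 over the members against -0.03 over all strains. The number of called members was 4 with arrays scaled to one spread (1.21% of all strains) and 19 with the tag blocks centred separately (14.7%). No ratio is designed to depart from 0 on this array, and what its departures reflect was not tested. Its title carries another date than those of the other 4 arrays, so pool and date cannot be told apart.

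The strains above 0 were as follows. DIG2 read 1.00 ± 0.17 (SE; limma adjusted p = 0.000371), with 2.21 in the second tag and -0.21 in the first. APT2 read 0.90 ± 0.17 (adjusted p = 0.00151), with 1.22 on the mixed array and 0.62, 0.38 and 0.56 on Pool A self-self, so this strain was above 0 on all 5 arrays. PUF6 read 0.87 ± 0.17 (limma adjusted p = 0.00227) beside 1.67 on the mixed array, against 0.03, -0.27 and -0.14 on Pool A self-self. The mixed and the Pool B arrays thus both stood above Pool A in PUF6, as they did in VPS60, RPL27B and VPS3. VPS60 read 0.80 beside 1.70 on the mixed array, against 0.20, -0.11 and -0.21 on Pool A self-self. RPL27B read 0.77 beside 0.81 on the mixed array, against -0.14, -0.23 and -0.29, so its 2 arrays with Pool B were level. VPS3 read 0.68 beside 1.67 on the mixed array, against 0.17, -0.12 and -0.10. In VPS60 (-0.05 and 1.64) and VPS3 (-0.37 and 1.72) only the second tag was above 0 on Pool B self-self. Both tag blocks were centred together. Over all strains the first tag had a median of -0.30 on this array and the second 0.19, so 0 is not the typical value of either tag. PEX29 (0.68 beside -0.26 on the mixed array, against -0.34, -0.45 and -0.70) and TLG1 (0.67 beside 0.31, against -0.04, -0.02 and 0.31) were higher on Pool B self-self than on the mixed array. VPS72 read 0.61 beside 0.99, against 0.28, 0.12 and 0.36 on Pool A self-self. The limma adjusted p of these 6 strains ran from 0.00471 (RPL27B) to 0.0207 (VPS72).

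Below 0 were ITR1 at -0.94 ± 0.17 (limma adjusted p = 0.000944), the first JIP4 set at -0.65 ± 0.17 (0.0185) and RMT2 at -0.56 ± 0.17 (0.0307). In the first JIP4 set and in RMT2 the tags had opposite signs, with 0.28 and -1.57 in JIP4 and -1.54 and 0.42 in RMT2, so each value below 0 rests on 1 spot. RMT2 read 0.84 on the mixed array, against -0.12, -0.27 and -0.15 on Pool A self-self. The JIP4 sets read alike on the mixed array (0.45 and 0.45) and apart on Pool B self-self (-0.65 and 0.56), against -0.27, -0.19 and -0.56 for the first set and 0.005, -0.27 and -0.72 for the second on Pool A self-self. The gene table gives YDR474C as an older name within JIP4 (YDR475C), and the annotation does not say which set belongs to which name.

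Set against the Pool A mean instead, the Pool B self-self array gave 13 members called higher and 2 lower by limma, 15 in all, beside 8.54%, 13.3% and 21.9% of all strains. This comparison shares its Pool A arrays with the one that chose the members, and its count is no independent evidence about them. The highest values were in PEX29 (1.18 ± 0.20), GPI19 (1.17 ± 0.19) and DIG2 (1.09 ± 0.19), whose differences on the mixed array were 0.24, 2.70 and -0.21. The 2 lower members were MFA1 (-1.42 ± 0.20) and ITR1 (-0.93 ± 0.20). In 11 members the Pool B self-self array was at or above the mixed array, which was not counted over all strains. Of these 11, LRS4 and the second JIP4 set were among the 34 called higher on the mixed array. LRS4 read 0.001 on the mixed array and 0.18 on Pool B self-self, against -0.56, -0.49 and -0.89 on Pool A self-self. Its difference of 0.65 ± 0.20, the smallest that was called, thus came from low Pool A values. Without Pool A replicate 1 this comparison called 24 members and 31.3% of all strains.

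With Pool A in both channels, most members lay close to the array medians, and the quartiles of all strains were close to them too. The Pool A means of the members had a median of -0.11 (quartiles -0.29 and -0.005), against 0.002 (quartiles -0.19 and 0.23) over all strains. Of the 50, 45 were within 0.5 of 0, which was not counted over all strains. By limma 3 members departed upward and 14 downward from 0, 17 in all, beside 24.3%, 20.6% and 44.9% of all strains; without Pool A replicate 3 7 members and 27.7% of all strains did. The SD over the 3 arrays had a median of 0.14 in the members and 0.15 over all strains, and it was highest in the second JIP4 set (0.37) and RIB3 (0.32). RIB3 read 1.75 on the mixed array and 0.57 on Pool B self-self, against 0.24, -0.24 and -0.37.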

How the data were processed

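The authors deposited 1 log2 ratio of the 2 channels per spot and array, 22575 spots on each of 5 arrays with 0 missing. Per the labels, tags were amplified by PCR of 50 cycles from about 50 ng of genomic DNA. For scanner, background treatment and normalization no source used here gives an answer. The log base was read off the small values, of which 100% were logs to base 2 of a ratio with 3 decimals, against 26.1% for base 10. Array medians over named spots were -0.33, 0.07 and 0.03 (Pool A self-self), -0.77 (Pool B self-self) and -0.50 (mixed), so each array was centred on its own.

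The platform annotation named 18794 of 22575 spots. The same genes recur in a second block, offset by 10971 spots, taken as the other tag. Spots of a tag were averaged, then the tags, into 5444 strains; symbols and order came from the gene table of assembly R64, which matched all 49 members. Coordinates were left out, since no build is named.

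limma 3.58.1 (R 4.3.3) was run on all strains, and separately on all 10888 tags, with 3 groups of arrays. Tests were two-sided with Benjamini-Hochberg adjustment over all strains, and the number of arrays limits the precision. Nothing says that the Pool A arrays stem from different cultures, and the spread behind each p-value may be technical. Correlations with the mixed array were 0.51 to 0.65 for Pool A self-self and 0.39 for Pool B self-self.

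The members and gene groups were chosen with earlier results of these data known. All members are named. Values on every array are given for the 12 with the largest difference, the 5 nearest to 0, those with tags more than 2 apart, and those called on Pool B self-self; others with such values were picked after their values were seen.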

Additional observations from a re-analysis of the deposited data

Results flagged for a closer look

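Within the stretch, 5 spot pairs carry no gene name in the platform annotation and enter none of the comparisons above. The pair between GUK1 and NHX1 stood out, since both of its spots read more on the mixed array than on any self-self array. Its mean difference from Pool A was 4.34. The first spot read 3.59 on the mixed array and -0.50 on Pool B self-self, against 0.13, -0.15 and -0.14 on Pool A self-self. The second read 5.04 and 0.03, against 0.16, -0.14 and -0.03. The highest of the named members, ECM11, was at 4.05. What this unnamed pair represents is not given in the sources used here.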

How the results depend on the processing

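The results with the mixed array were recomputed under 13 alternatives and the others under 11; shares in brackets are of all strains. Counts for mixed minus Pool A describe the contrast that chose the members. Most of the members called higher lost the call under some alternative, GPI19 among them. The 34 members called higher (1.54%) numbered 19 (0.569%) without centring, 14 (0.496%) with all 4 self-self arrays as the reference, and 30 to 34 without each Pool A array in turn. With the Pool B array as the reference 2 members (5.2%) were called lower, PEX29 and DIG2. The median difference of 1.04 was 0.61 without centring, 0.81 by the first tag, 1.20 by the second and 0.85 with the Pool B array as the reference. Reversed values were LRS4 (-0.18), the second JIP4 set (-0.11) and PEX29 (-0.94) with the Pool B array as the reference, and RPL27B (-0.024) by the first tag. For Pool B self-self minus Pool A, the members called numbered 15 (21.9%) as reported, 4 (34.9%) without centring, 23 (26.6%) with blocks centred separately, 24 (29.6%) with quantile normalization and 10 to 24 (13.2% to 31.3%) without each Pool A array, and the median was -0.30 without centring and 0.20 by the first tag, against 0.39. Pool B self-self against 0 gave 12 (10.6%), with 19 (14.7%) for blocks centred separately, 4 (1.21%) for arrays scaled to one spread and 14 (8.89% to 14.9%) without each Pool A array; its median of 0.29 was -0.48 without centring and 0.15 by the first tag. Pool A self-self against 0 gave 17 (44.9%), with 6 (15.3%) without centring, 9 (38.9%) by the second tag and 7 to 19 (27.7% to 46.6%) without each Pool A array. Leaving out the centring moved the median of all strains to -0.49 for mixed minus Pool A and to -0.72 for Pool B self-self minus Pool A. The causes were not tested. No paired analysis was possible because the groups compared share fewer than 2 replicate numbers.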
